A study of Mus musculus with 17 samples.

Results

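Targeted experimental autoimmune encephalomyelitis (EAE) was compared with the untouched cord in mice that received an isotype control antibody and in naïve mice. All 18194 genes with a probe set of their own entered, each by the probe set with the highest mean signal, and the samples were the 11 arrays of these groups out of 17 in the series. The isotype control group held 5 mice and the naïve group 6, all C57BL/6 females with a labelled age of 8 weeks, with 1 array per mouse. In the isotype control group, mice were immunised with a myelin oligodendrocyte glycoprotein (MOG) peptide in complete Freund's adjuvant. After 3 weeks they had a laminectomy at thoracic vertebra 8, an injection of the cytokines TNF-α and IFN-γ into the cord, and pertussis toxin into a vein. Palivizumab, a humanized antibody against a viral protein that served as the isotype control, was given at 10 mg/kg 2 times weekly, starting 9 days after the cytokines (days post injection, DPI). Cord of 4.5 mm around the injection site was taken after perfusion at 14 DPI. The naïve mice had no immunisation, surgery, cytokines, toxin or antibody. The effects of these steps and of autoimmune inflammation cannot be told apart in this comparison. The labelled age of 8 weeks need not be the age at sampling. In the isotype control mice, sampling at 14 DPI came after the 3 weeks that followed immunisation. A difference in age between the groups at sampling cannot be told apart either. Mice given the anti-RGMa antibody entered only the choice of probe sets and the estimate of the spread between mice.

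EAE is a model of multiple sclerosis in which T cells that recognise a myelin protein cross the vessels of the central nervous system and recruit monocytes. Resident astrocytes and microglia change their gene programmes, vessels become leaky, and myelin and axons are damaged. Macrophages that clear myelin take up large amounts of lipid, and perivascular fibroblasts lay down a collagen scar in such lesions. The comparison below therefore follows the cord through its glia, lipids, dividing cells, matrix, vessels, energy metabolism, protein turnover, stress responses and signalling.

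The deposited scaling had set every array to the same trimmed mean. The median signal ran from 132 to 145 in naïve mice and from 137 to 165 in the isotype control group. Of the pairs of arrays, 0 held identical values. As spinal cord should, naïve arrays carried high signals of myelin and neuron genes, with a mean log2 signal of 15.26 ± 0.06 (SD, n = 6) for Mbp (myelin basic protein) and 14.75 ± 0.06 for Snap25, a protein of synaptic vesicle release. Signals of skeletal muscle genes were high in some isotype control arrays. The mean log2 signal of 33 skeletal muscle genes was 6.31, 6.04, 8.88, 12.20 and 8.33 in isotype control replicates 1 to 5, against 5.38 to 7.63 in naïve mice, so that replicate 4 stood far above the rest and replicate 3 came next. Replicates 3, 4 and 5 were above every naïve array by this measure, and results without them are given below for some lists and genes. With these 3 arrays left out, 3 of the 33 muscle genes were called higher, against 14 with all arrays.

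A gene was called when limma gave an adjusted p under 0.05 over all 18194 genes and the fold exceeded 1.5. By this measure 3135 genes rose and 2709 fell in the isotype control group relative to naïve mice, which is 17.2% and 14.9% of the genes tested, and 12350 were not called. Every isotype control array lay above every naïve array for 18.3% of all genes and below for 20.4%. The sizes were unequal: 1061 genes rose by over 2 on the log2 scale and 57 fell by as much, while 268 rose and 0 fell by over 4. Of the 10712 genes whose higher group had a mean of 8 or more on the log2 scale, 20.7% rose and 19.9% fell, and there the median log2 fold change was 1.35 over called rises and -0.88 over called falls. The balance of rises and falls depended on the scaling. Of all calls, 53.6% were rises with the deposited scaling and 42.1% when every array was set to the same median, which moved the log2 fold change of the median gene by -0.136. List counts under this median scaling are given below for some of the lists that changed. The list counts below can be read against the 17.2% and 14.9% of all genes. All changes below are log2 fold changes, isotype control minus naïve, and the median of a list is taken over its measured members.

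The largest rises belonged to chemokines and to enzymes of activated macrophages. Cxcl9, an interferon-γ-induced chemokine that attracts T cells, had log2 signals of 13.05, 12.36, 12.36, 11.97 and 13.78 in isotype control replicates 1 to 5 and from 2.17 to 3.81 (median 2.93) in naïve mice. All isotype control arrays lay far above all naïve arrays, and the log2 fold change was 9.74 (SE 0.30, adjusted p = 4.4e-12). Acod1, which makes itaconate from an intermediate of the citric acid cycle, rose by 9.45 (SE 0.32). Arg1, the arginase that turns arginine into ornithine, rose by 8.24 (SE 0.89). Cst7, an inhibitor of lysosomal cathepsins, rose by 8.97, Chil3, a chitinase-like protein of macrophages, by 8.07, and Ccr7, a homing receptor of dendritic and T cells, by 7.35. Because the naïve signals of such genes were near the lower end of the arrays, their folds depend on background. Among genes of high signal in the isotype control group, Lyz2 (lysozyme) rose by 4.90, Ctss (cathepsin S) by 2.51, H2-K1 (an MHC class I chain) by 3.35, B2m (its partner) by 2.04 and C1qa (a complement subunit) by 3.14 on the log2 scale.

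Among genes whose higher group had a mean of 8 or more on the log2 scale, the largest falls were smaller than the largest rises. Rasd2, a small GTPase of neurons, had log2 signals from 8.46 to 8.82 (median 8.69) in naïve mice and 4.73, 6.73, 7.32, 7.02 and 4.71 in isotype control replicates 1 to 5. Every isotype control array was below every naïve array. The log2 fold change was -2.55 (SE 0.58, adjusted p = 0.0016). The other probe set of Rasd2 had 0.04 (not called), and the mean of its probe sets -1.255 (called lower). Partners of potassium channels were among these falls, with -2.06 for Kcnab3, -2.03 for Kcnip2 and -2.03 for Kcnab1, all of which bind pore-forming subunits. Kcnip2 had -1.31 (called lower) with the muscle signal of the arrays as a covariate. The falls with the smallest p-values were Slc8a3 (a sodium-calcium exchanger, -1.49), Tmem144 (-1.25), Usp11 (a deubiquitinase, -1.06) and Las1l (a nuclease of ribosomal RNA processing, -0.60).

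**Figure D1:**
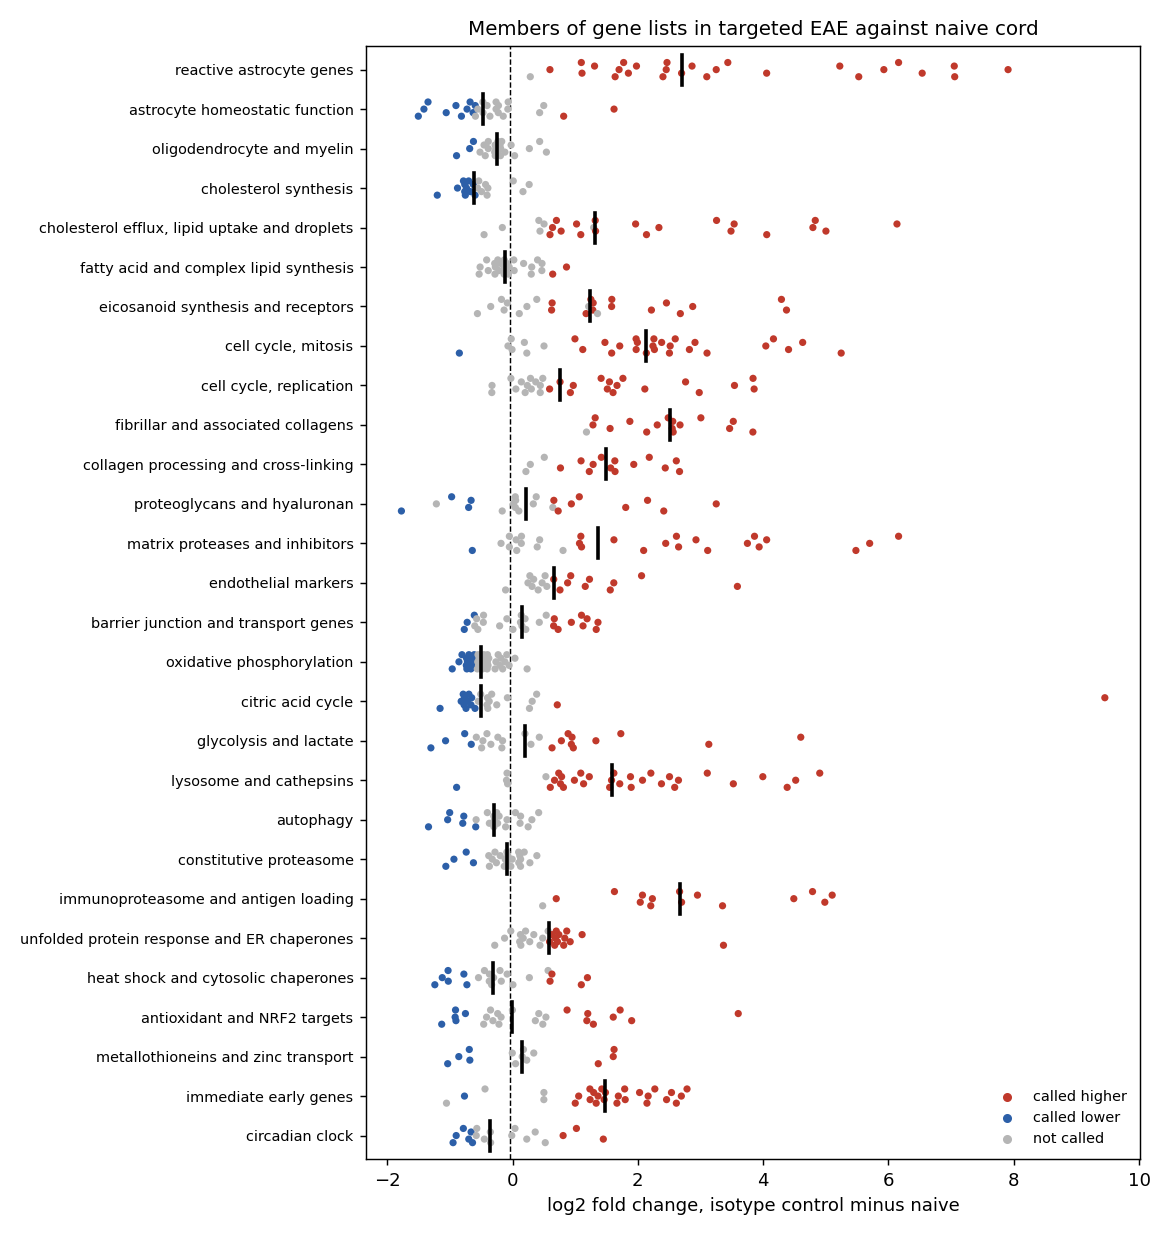
Log2 fold change of isotype control against naïve for each measured member of 28 gene lists, with 1 point per gene on the horizontal axis and 1 list per row. Red points were called higher, blue points lower and grey points not called, the black bar is the median of the list, and the dashed line is the median of all genes (-0.04).

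For context, macrophage markers rose and nearly all neuron markers fell. Of 14 macrophage and monocyte markers 14 were called higher (median log2 fold change 3.85), and of 21 neuron markers 20 were called lower (median -1.07), against 17.2% and 14.9% of all genes and a median over all genes of -0.04. In bulk tissue, fewer cells of a type and less RNA per cell cannot be told apart, and the same holds for more cells and more RNA per cell. This applies to every list below.

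Astrocyte genes changed in both directions. Of 27 genes known from reactive astrocytes, 26 rose and 0 fell, with a median log2 fold change of 2.70. Of 27 genes of homeostatic astrocyte work, 10 fell and 2 rose, with a median of -0.47. Infiltrating cells also express several of the reactive genes, such as Cd44 and Timp1, and the part of each cell type was not tested.

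Lcn2 (lipocalin 2, an acute phase protein that binds bacterial iron carriers) had log2 signals of 14.53, 14.27, 13.73, 13.78 and 14.47 in isotype control replicates 1 to 5 and from 4.95 to 6.89 (median 6.52) in naïve mice. The groups were far apart, and the log2 fold change was 7.91 (SE 0.31, adjusted p = 4.1e-11). Steap4, a metalloreductase, rose by 6.54, Ptx3, a secreted pattern recognition protein, by 5.53, and Osmr, the receptor subunit for oncostatin M, by 3.10. Gfap and Vim, the intermediate filaments by which reactive astrocytes are usually stained, rose by 1.11 (SE 0.12) and 2.47 (SE 0.13). Socs3, the feedback inhibitor of STAT3 signalling, had log2 signals from 5.60 to 6.85 (median 6.35) in naïve mice and 11.66, 11.61, 11.07, 11.09 and 11.88 in isotype control replicates 1 to 5. Every isotype control array was above every naïve array. Its log2 fold change was 5.22 (SE 0.30), and that of Stat3 itself was 1.70 (SE 0.13). The 1 member that was not called was Fkbp5, a glucocorticoid-induced chaperone (0.28, adjusted p = 0.30).

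Among the homeostatic genes, Gjb6, which encodes the gap junction protein connexin 30, had log2 signals from 11.74 to 12.20 (median 11.95) in naïve mice and 10.22, 10.76, 11.04, 10.50 and 10.52 in isotype control replicates 1 to 5. The groups did not overlap, and all isotype control values were the lower ones. The log2 fold change was -1.35 (SE 0.18, adjusted p = 1.3e-05). Gja1, which encodes the other main astrocyte connexin, had -0.41 and was not called. Cbs, which makes cystathionine from homocysteine, fell by 1.503, Ntsr2, a neurotensin receptor, by 1.06, Fgfr3, a growth factor receptor, by 0.82, and Slc6a9, a glycine transporter, by 0.73. Against this direction Slc1a3, the glutamate transporter GLAST, rose by 1.62 (SE 0.21), but had 0.80 (called higher) with the mean of its probe sets. Glul (glutamine synthetase) had -0.22 and S100b -0.26, and neither was called. With every array set to the same median, 14 of the 27 members were called lower.

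Promoter sequences are shown for 3 programmes of the results, the reactive astrocyte regulator Socs3 here and the cholesterol and mitosis genes further below. They are the 250 bases before the start in RefSeq on GRCm38.p6, written 5′ to 3′ on the strand of the gene. The pattern TTCNNNGAA, the letters of STAT binding sites, was found on either strand in 4 of 25 reactive astrocyte genes with a promoter in the table, against 7.18% of all 27025 promoters and 6.3% of those of measured genes. The genes were Steap4, Emp1, Tgm1 and Socs3. In the Socs3 promoter (GRCm38.p6 chr11:117969367-117969616, minus strand) the capitals mark this match, 154 bases before the start.
Socs3: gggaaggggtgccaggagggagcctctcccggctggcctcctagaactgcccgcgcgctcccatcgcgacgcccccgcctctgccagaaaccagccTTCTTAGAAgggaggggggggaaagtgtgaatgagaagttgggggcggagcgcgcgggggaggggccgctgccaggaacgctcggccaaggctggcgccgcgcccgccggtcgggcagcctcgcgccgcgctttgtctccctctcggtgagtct

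Few myelin genes were called. Of 24 oligodendrocyte and myelin genes 3 fell, 0 rose and 21 were not called, with a median log2 fold change of -0.25. The falls were 12.5% of the list, close to the 14.9% of all genes, and 5 fell under median scaling. Mbp had -0.23 (SE 0.07), Cnp -0.28 (SE 0.09) and Mobp -0.19 (SE 0.10), and none of them was called. The members that fell were Gpr37, a receptor of maturing oligodendrocytes (-0.89), Mal, a membrane raft protein of myelin (-0.68), and Tspan2 (-0.62). Of 13 precursor genes 5 rose and 1 fell (38.5% and 7.69% of the list, median 0.09), among the rises Pdgfra, the receptor that drives their division (0.67), and Vcan, a matrix proteoglycan (1.07). Under median scaling 3 rose and 1 fell (median -0.04), and Pdgfra had 0.53 (not called). Pdgfra, Cspg4 and Vcan are also made by fibroblasts and pericytes, and the precursor gene Olig2 (-0.20) was not called.

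Genes of cholesterol synthesis fell or were not called, and most genes of lipid uptake and release rose. Of 20 genes of cholesterol synthesis 11 fell and 0 rose, with a median log2 fold change of -0.61. Of 25 genes of cholesterol efflux, lipid uptake and lipid droplets 19 rose and 0 fell, with a median of 1.32. Fatty acid synthesis did not follow cholesterol, with 2 of 27 genes higher, 0 lower and a median of -0.12. Of 26 genes of fatty acid oxidation 1 rose and 0 fell (median 0.07).

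Fdps, which joins isoprenoid units to farnesyl diphosphate, had log2 signals from 11.43 to 12.10 (median 11.77) in naïve mice and 10.11, 10.57, 11.12, 10.30 and 10.65 in isotype control replicates 1 to 5. The highest isotype control value was under the lowest naïve value. The log2 fold change was -1.20 (SE 0.23, adjusted p = 0.00044). Lss, which folds squalene epoxide into lanosterol, fell by 0.76, Tm7sf2, a sterol reductase, by 0.78, Mvd, a decarboxylase of the mevalonate steps, by 0.70, and Nsdhl and Sc5d, which act on later sterols, by 0.74 and 0.67. Other steps of the pathway were not called, namely Hmgcs1, at the entry (-0.41), Cyp51, the lanosterol demethylase (-0.49), and Ebp, a sterol isomerase (0.17). Median scaling gave 14 falls. Without isotype control replicates 3, 4 and 5 the number of members that fell was 8. Among the genes that rose, Gpnmb, a glycoprotein of lipid-laden macrophages, had 6.14, Apoc2, a cofactor of lipoprotein lipase, 4.83, and Cd36, a scavenger receptor, 4.79. Abca1, which exports cholesterol, rose by 2.34 (SE 0.21), and Ch25h, which makes 25-hydroxycholesterol, by 3.49 (SE 0.27). The lipid carrier Apoe had 0.50 (adjusted p = 0.0017), which did not exceed the fold threshold.

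The letters CCAAT, the binding motif of NF-Y, stood on either strand in 15 of 16 cholesterol synthesis promoters, against 34.5% of all promoters and 35.7% of those of measured genes. It also stood in 21 of 26 mitosis, 15 of 25 replication, 12 of 17 clock and 8 of 12 immunoproteasome promoters. Among the other lists searched it stood in 7 of 25 reactive astrocyte and 7 of 22 immediate early promoters. The JAK-STAT and NF-κB list had it in 8 of 24, the collagens in 4 of 12 and the lysosome genes in 11 of 27. Lss (chr10:76531355-76531604, plus strand), Tm7sf2 (chr19:6067851-6068100, minus strand) and Mvd (chr8:122443423-122443672, minus strand) are shown as members that fell, with CCAAT or its reverse complement in capitals.
Lss: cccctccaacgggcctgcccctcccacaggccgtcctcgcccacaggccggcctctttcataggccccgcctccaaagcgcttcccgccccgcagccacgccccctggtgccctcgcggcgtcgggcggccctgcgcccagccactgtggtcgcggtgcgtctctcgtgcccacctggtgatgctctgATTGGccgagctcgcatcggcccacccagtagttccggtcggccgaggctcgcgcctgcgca
Tm7sf2: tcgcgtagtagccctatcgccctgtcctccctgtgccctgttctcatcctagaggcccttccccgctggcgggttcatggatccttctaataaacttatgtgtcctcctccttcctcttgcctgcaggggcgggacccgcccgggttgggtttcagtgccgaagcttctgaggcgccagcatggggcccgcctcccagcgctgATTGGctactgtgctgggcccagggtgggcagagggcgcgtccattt
Mvd: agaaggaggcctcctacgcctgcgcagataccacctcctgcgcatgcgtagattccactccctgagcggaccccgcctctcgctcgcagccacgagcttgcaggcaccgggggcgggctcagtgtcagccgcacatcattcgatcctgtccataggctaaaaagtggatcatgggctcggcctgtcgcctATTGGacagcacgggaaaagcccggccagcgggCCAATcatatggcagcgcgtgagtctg

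Genes of lipid mediators rose or were not called. Of 24 genes of prostaglandin and leukotriene synthesis and their receptors 14 rose and 0 fell (median 1.23). Ptgs2, the inducible cyclooxygenase, rose by 4.29 (SE 0.34), Alox5ap, the activating protein of leukotriene synthesis, by 2.88, and Tbxas1, thromboxane synthase, by 2.46. Ptgds, the prostaglandin D synthase of meninges and oligodendrocytes, had -0.56 and was not called.

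Genes of dividing cells rose. Of 31 mitosis genes 24 rose and 1 fell (median log2 fold change 2.14), and of 29 replication genes 16 rose and 0 fell (median 0.76). Mki67, the proliferation antigen Ki-67, had log2 signals from 2.87 to 5.43 (median 4.66) in naïve mice and 10.36, 9.25, 9.51, 9.70 and 9.76 in isotype control replicates 1 to 5. The groups did not overlap, and all isotype control values were the higher ones. The log2 fold change was 5.25 (SE 0.44, adjusted p = 1.3e-07). Top2a, which untangles replicated DNA, rose by 4.41, Ube2c, which marks mitotic cyclins for destruction, by 4.04, and Cdc20, which activates the same ligase, by 2.91. Rrm2, the limiting subunit for deoxynucleotides, rose by 3.54 and Mcm3, of the replicative helicase, by 2.76. Pcna, the sliding clamp, had 0.37 and was not called, and Anln, which myelinating cells also express, fell by 0.85. Of the inhibitors of the cycle, Cdkn2c rose by 1.70, while Cdkn1a (0.42) was not called. Which cells divided cannot be read from bulk tissue.

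In the mitosis promoters the letters TTTGAA, the core of the cell cycle homology region, stood on either strand in 9 of 26, against 16.3% of all promoters and 11.9% of those of measured genes. CCAAT and TTTGAA were counted apart, also where matches overlap. Top2a (chr11:99024190-99024439, minus strand), Ube2c (chr2:164769679-164769928, plus strand) and Cdc20 (chr4:118437344-118437593, minus strand) are shown as strong rises that hold both, in capitals on either strand.
Top2a: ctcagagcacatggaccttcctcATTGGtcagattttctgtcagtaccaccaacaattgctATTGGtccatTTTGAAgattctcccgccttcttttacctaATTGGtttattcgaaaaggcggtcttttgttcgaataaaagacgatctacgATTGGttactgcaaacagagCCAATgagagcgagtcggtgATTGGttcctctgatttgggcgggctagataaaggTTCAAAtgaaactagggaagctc
Ube2c: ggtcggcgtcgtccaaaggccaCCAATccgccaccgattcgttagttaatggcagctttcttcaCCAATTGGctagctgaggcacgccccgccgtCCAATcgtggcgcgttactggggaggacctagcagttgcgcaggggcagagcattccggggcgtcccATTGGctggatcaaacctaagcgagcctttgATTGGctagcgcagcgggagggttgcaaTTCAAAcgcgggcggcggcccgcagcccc
Cdc20: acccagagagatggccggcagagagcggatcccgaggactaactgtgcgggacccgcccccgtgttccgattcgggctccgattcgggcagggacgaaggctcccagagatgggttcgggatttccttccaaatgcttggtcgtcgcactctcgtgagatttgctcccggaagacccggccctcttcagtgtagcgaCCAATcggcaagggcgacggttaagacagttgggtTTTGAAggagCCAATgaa
The TTTGAA match nearest to the start lay 23, 29 and 18 bases before it. In all, 15 patterns were searched in 10 lists, and those shown were chosen after the counts were seen. A match describes letters and is not a binding site.

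**Figure D2:**
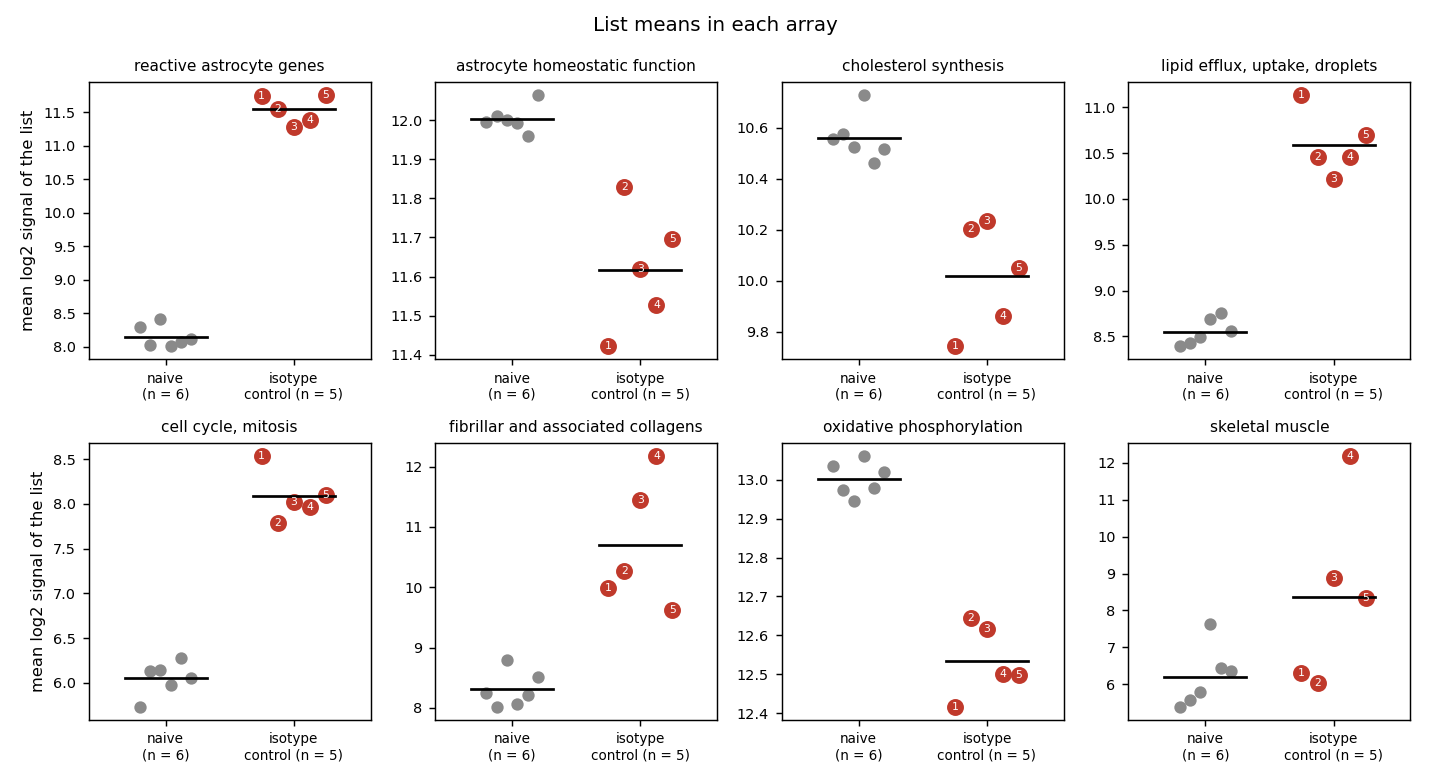
Mean log2 signal of the members of 8 gene lists in each array, with naïve mice in grey and isotype control mice in red, the replicate number in each isotype control point and the group mean as a bar. Cholesterol synthesis, oxidative phosphorylation and homeostatic astrocyte genes lie lower in isotype control mice, while skeletal muscle genes spread from 6.04 to 12.20 among them.

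Collagens and their processing enzymes rose together. Of 16 fibrillar and associated collagens 15 rose and 0 fell, with a median log2 fold change of 2.52. Of 16 genes of collagen processing and cross-linking 13 rose (median 1.49), of 16 basement membrane genes 10 (median 1.25) and of 19 matricellular genes 14 (median 2.04), and 0 of these 3 lists' members fell. Col1a1, the main chain of scar collagen, had log2 signals from 7.07 to 8.98 (median 7.39) in naïve mice and 10.50, 11.67, 11.87, 12.99 and 10.29 in isotype control replicates 1 to 5. The lowest isotype control value exceeded the highest naïve value. The log2 fold change was 3.84 (SE 0.48, adjusted p = 1.0e-05). Replicate 4, which carried the most skeletal muscle, had the highest Col1a1 signal. Without isotype control replicates 3, 4 and 5 the log2 fold change was 3.46 (called higher), and the median over the list 1.71. Still, 15 of the 16 collagens were called higher. Col3a1 rose by 3.52, Tnc (tenascin C) by 3.81, Tgfbi, a collagen-binding protein, by 4.13, and Fn1 (fibronectin) by 2.58.

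Proteoglycan genes changed in both directions. Of 22 proteoglycan and hyaluronan genes 8 rose and 4 fell (36.4% and 18.2% of the list, median 0.22). The scar proteoglycans Bgn (biglycan) and Dcn (decorin) rose by 2.41 and 1.81, and Cd44, the hyaluronan receptor, by 3.25. Hapln4, a link protein of perineuronal nets, had log2 signals from 10.71 to 10.95 (median 10.87) in naïve mice and 8.21, 9.45, 9.73, 9.51 and 8.51 in isotype control replicates 1 to 5. No isotype control array reached the naïve range, which lay higher. Its log2 fold change was -1.77 (SE 0.30). Hapln2, at the nodes of Ranvier, fell by 0.70 and Bcan (brevican) by 0.66. Without isotype control replicates 3, 4 and 5, 5 members were called higher and 3 lower.

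Many matrix proteases rose, as did their inhibitor Timp1. Of 28 proteases and inhibitors 17 rose and 1 fell (median log2 fold change 1.36). Timp1, the inducible metalloproteinase inhibitor, had log2 signals of 13.00, 12.47, 11.94, 12.12 and 12.51 in isotype control replicates 1 to 5 and from 4.90 to 6.92 (median 6.49) in naïve mice. No naïve array reached the isotype control range, which lay higher. It rose by 6.16 (SE 0.37), while Timp2 (0.14) and Timp4 (-0.18) were not called. Mmp12, the macrophage elastase, rose by 5.48 and Mmp14, a membrane-anchored protease, by 2.93. Mmp17 fell by 0.64. Serpina3n, a serine protease inhibitor of reactive glia, rose by 4.06.

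Endothelial markers rose or were not called, and more barrier genes rose than fell with the deposited scaling. Of 19 endothelial markers 10 rose and 0 fell (median log2 fold change 0.66), led by Vwf, the von Willebrand factor of endothelial granules (3.59, SE 0.36), while Plvap (0.25) and Egfl7 (0.41) were not called. Of 27 junction and transport genes of the blood-spinal cord barrier 9 rose and 3 fell (median 0.15). The rises were 33.3% of the list, and the falls 11.1%, under the 14.9% of all genes. With every array set to the same median, 7 rose and 8 fell. Mfsd2a, the lipid transporter that restrains vesicle traffic across the barrier, had log2 signals from 10.15 to 10.87 (median 10.69) in naïve mice and 9.68, 10.16, 9.43, 9.65 and 10.35 in isotype control replicates 1 to 5. The groups overlapped, with isotype control replicates 1, 3 and 4 below the naïve range. It fell by 0.77 (SE 0.17, adjusted p = 0.0011). Slco1a4, an organic anion transporter, fell by 0.61. With the muscle signal of the arrays as a covariate the log2 fold change was -0.58 (not called) for Mfsd2a and -0.47 (not called) for Slco1a4. Cav1, which forms caveolae, rose by 1.10 (SE 0.21). Its partner Cavin1 rose by 1.34 (SE 0.23), but had 0.54 (not called) with the mean of its probe sets. Tjp1, the junction scaffold ZO-1, rose by 0.66, and Slc2a1, the glucose transporter of the barrier, had 0.43 and was not called, against 0.66 (called higher) without isotype control replicates 3, 4 and 5.

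Among 21 angiogenic ligands and receptors 9 rose and 2 fell (median 0.54). Esm1, a proteoglycan of sprouting tip cells, rose by 3.49 (SE 0.71), Angptl4, a lipase inhibitor, by 2.71, and Nrp1, a co-receptor for VEGF and semaphorins, by 1.73. Vegfb fell by 0.90 and Apln (apelin) by 0.95. Vegfa, the main driver of vessel growth, had -0.10 (SE 0.08, adjusted p = 0.33) and was not called. Of 23 coagulation and fibrinolysis genes 14 rose and 1 fell (median 1.11). F10, which encodes coagulation factor X, rose by 5.12, Procr, the endothelial protein C receptor, by 2.68, and Plaur, the urokinase receptor, by 2.44. Pericyte and smooth muscle markers gave 9 rises of 18, but 5 with the muscle signal of the arrays as a covariate. Acta2 (0.86), Tpm2 (1.27) and Des (1.94) were called with all arrays, and without isotype control replicates 3, 4 and 5 they had 0.52 (not called), 0.75 (called higher) and 0.79 (not called). Pdgfrb, a receptor of pericytes, rose by 1.24, while Rgs5 (-0.13) and Notch3 (0.49) were not called. The part of muscle tissue in these values was not tested.

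Among genes of oxidative energy metabolism, falls outnumbered rises. Of 46 genes of oxidative phosphorylation 15 fell and 0 rose, with a median log2 fold change of -0.51 and 44 values below 0. Of 25 genes of the citric acid cycle and its branches 11 fell and 2 rose (median -0.51). With every array set to the same median 28 oxidative phosphorylation genes were called lower. Sdha, the catalytic subunit of succinate dehydrogenase, fell by 0.72 (SE 0.09), Uqcrc2, a core subunit of complex III, by 0.74, and Ndufa10, of complex I, by 0.81. Cox4i1 (-0.40) and Cox7a2 (-0.38), subunits of complex IV, were not called. Idh3a, the NAD-linked isocitrate dehydrogenase of the cycle, had log2 signals from 12.33 to 12.89 (median 12.84) in naïve mice and 11.17, 11.57, 12.01, 11.77 and 11.37 in isotype control replicates 1 to 5. All arrays of the isotype control group stood below the naïve range. It fell by 1.16 (SE 0.16, adjusted p = 2.5e-05). The rises in this list were Acod1, given above, and Aco1, the cytosolic aconitase (0.71).

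More glycolysis genes rose than fell. Of 25 glycolysis and lactate genes 10 rose and 4 fell (40% and 16% of the list, median 0.20). With every array set to the same median, 8 rose and 7 fell. The hexokinases Hk2 and Hk3, which start the pathway, rose by 3.13 (SE 0.23) and 4.60 (SE 0.29). Ldha and Ldhb, the lactate dehydrogenase subunits, changed in opposite directions, with 1.33 (SE 0.13) for Ldha and -0.76 (SE 0.12) for Ldhb. Ldha signals were 13.01, 12.82, 12.57, 12.48 and 13.08 in isotype control replicates 1 to 5 against 11.33 to 11.66 (median 11.40) in naïve mice, and Ldhb signals were 12.72, 13.05, 12.96, 12.73 and 12.62 against 13.44 to 13.73 (median 13.59). Neither gene overlapped between the groups. Slc2a3, the glucose transporter of neurons, fell by 1.07, and Slc2a6, a transporter of inflammatory macrophages, rose by 0.78. Gapdh, often taken as a reference gene, had -0.49 (SE 0.09) and was not called, against -0.59 (called lower) without isotype control replicates 3, 4 and 5.

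Enzymes of nucleotide, arginine and polyamine metabolism had more rises than falls. Of 25 pentose phosphate and nucleotide genes 7 rose and 2 fell (median 0.20). Samhd1, which destroys deoxynucleotides, rose by 2.95, Xdh, which makes uric acid, by 2.72, Upp1 (uridine phosphorylase) by 2.28 and Pgd, of the oxidative pentose phosphate branch, by 1.47. Prps1 and Gmps, which act in synthesis, fell by 0.82 and 0.83. Of 22 tryptophan, arginine and polyamine genes 10 rose and 1 fell (median 0.71). Besides Arg1, the mitochondrial arginase Arg2 rose by 2.78 (SE 0.32), Odc1, which makes putrescine, by 1.04, and Sat1, which breaks polyamines down, by 1.42. Nos1, the nitric oxide synthase of neurons, fell by 0.64, and Nos3, that of endothelium, rose by 0.67.

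Lysosome and immunoproteasome genes rose. Of 33 lysosome and cathepsin genes 28 rose and 1 fell (median log2 fold change 1.58), and of 15 immunoproteasome and antigen loading genes 14 rose and 0 fell (median 2.67). Of 23 autophagy genes 0 rose and 6 fell (median -0.29). Of 25 constitutive proteasome genes 0 rose and 4 fell (median -0.09), and these falls, 16% of the list, were close to the 14.9% of all genes. Psmb8, a catalytic subunit of the immunoproteasome, had log2 signals from 6.85 to 7.78 (median 7.38) in naïve mice and 12.62, 12.41, 12.35, 11.79 and 13.15 in isotype control replicates 1 to 5. All arrays of the isotype control group stood above the naïve range. Psmb9, another such subunit, rose by 4.79, and Nlrc5, the regulator of MHC class I genes, by 4.98. Psmb7, a catalytic subunit of the constitutive core, had 11.49, 11.33, 11.81, 11.36 and 11.77 in isotype control replicates 1 to 5 against 12.37 to 12.74 (median 12.44) in naïve mice. Every isotype control array was below every naïve array. Psmb8 rose by 5.10 (SE 0.24) and Psmb7 fell by 0.94 (SE 0.16). Psmc5 and Psmc1, ATPases of the regulatory cap, fell by 1.06 and 0.74, and Psma6 (0.39) was not called.

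Within the lysosome list, Ctsc, which activates granule proteases, rose by 4.52, Grn (progranulin) by 2.65 and Ctsz by 2.07. Atp6v1b2, the proton pump subunit used in synaptic vesicles, fell by 0.89, and Psap, the precursor of saposins, had 0.53 and was not called, against 0.64 (called higher) without isotype control replicates 3, 4 and 5. Gabarapl1, an ATG8 protein of the autophagosome, had log2 signals from 13.40 to 13.66 (median 13.54) in naïve mice and 11.86, 12.29, 12.61, 12.23 and 12.01 in isotype control replicates 1 to 5. The groups did not overlap, and all isotype control values were the lower ones. It fell by 1.34 (SE 0.17), Gabarapl2 by 1.04 and Sqstm1, the cargo receptor p62, by 1.003. The relatives Gabarap (0.31) and Map1lc3b (-0.37) were not called. Of 24 cell death genes 18 rose and 0 fell (median 1.76). Casp1, an inflammatory caspase, rose by 3.02, Casp8, an initiator of apoptosis, by 2.66, and Gsdmd, the pore former of pyroptosis, by 3.54. The inhibitors Birc3 and Cflar rose as well, by 3.62 and 1.95, while Bcl2 (0.30) was not called.

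**Figure D3:**
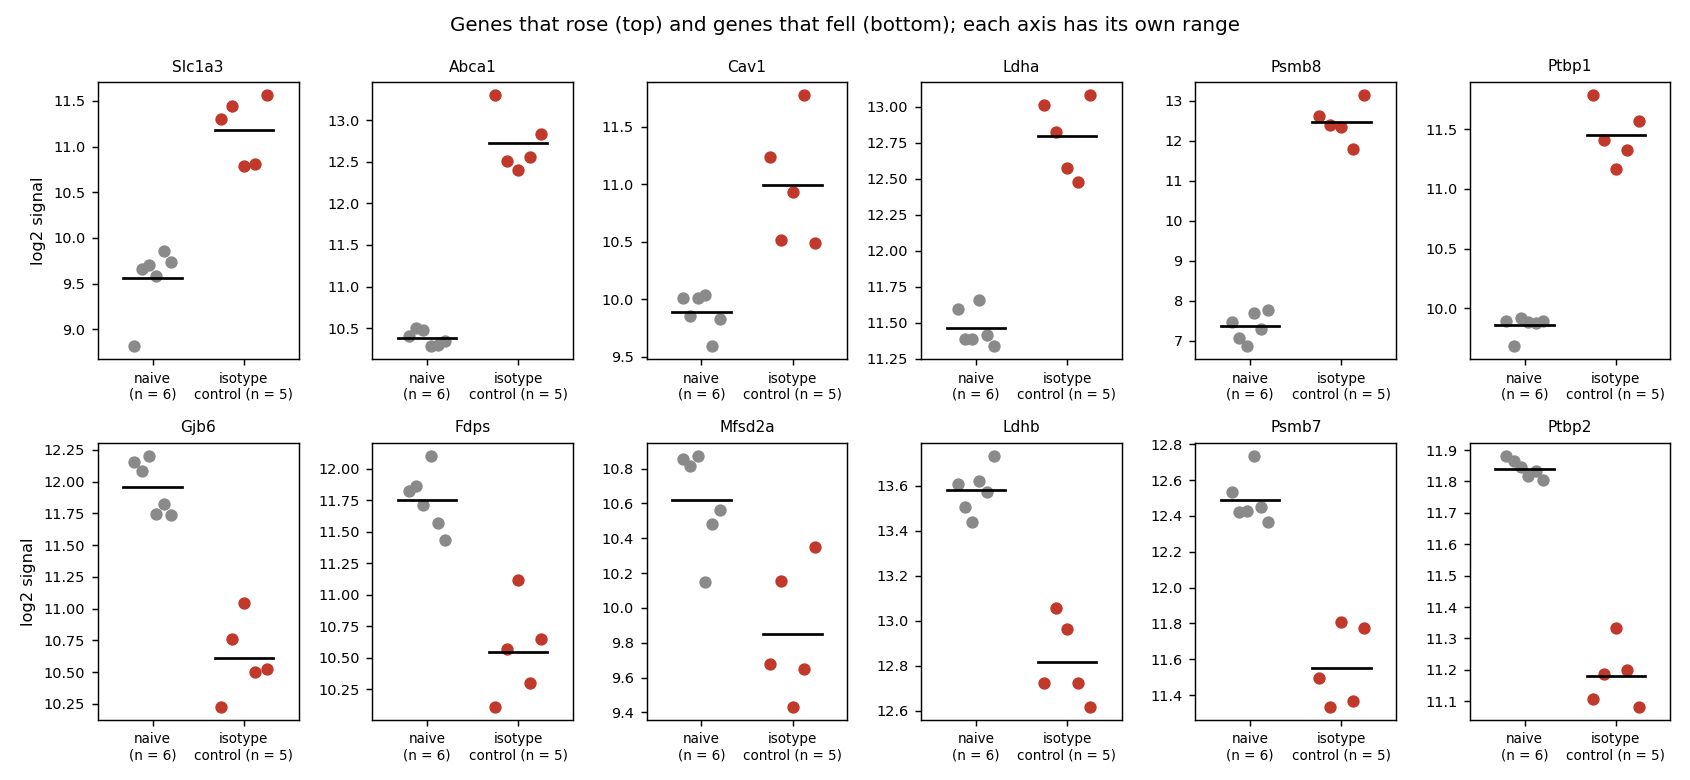
Log2 signal of 12 genes in each array, drawn in pairs of related function, with naïve mice in grey, isotype control mice in red and the group mean as a bar. In each pair the upper gene rose and the lower gene fell, and signals of different genes are not compared since they come from different probe sets.

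Stress programmes did not move as a unit. Of 26 genes of the unfolded protein response 13 rose and 0 fell (median log2 fold change 0.58), but with every array set to the same median 7 rose. Hspa5, the chaperone BiP that marks this response, had 0.34 (SE 0.09, adjusted p = 0.0041), and its transcription factors Atf4 and Ddit3 had -0.03 and 0.11. None of the 3 was called. Creld2, a secreted product of the response, rose by 1.11, Xbp1 by 0.83 and Atf3, which several stresses induce, by 3.37. Of 23 genes of the amino acid response 10 rose and 5 fell (43.5% and 21.7% of the list, median 0.20), and with every array set to the same median 5 rose and 5 fell. Asns, which makes asparagine and is a standard target of ATF4, had log2 signals from 11.25 to 11.80 (median 11.68) in naïve mice and 9.90, 10.46, 10.88, 10.35 and 10.06 in isotype control replicates 1 to 5. The highest isotype control value was under the lowest naïve value. It fell by 1.30 (SE 0.17) and Chac1 by 1.19. Nupr1 and Cebpb, which inflammation also induces, rose by 3.12 and 3.39, and Slc7a11, the cystine transporter, by 1.90.

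Heat shock genes fell more often than they rose. Of 22 heat shock genes 6 fell and 4 rose (27.3% and 18.2% of the list, median log2 fold change -0.32), and with median scaling 7 fell and 2 rose. Of the list 2 rose without isotype control replicates 3, 4 and 5. Stip1, a cochaperone of HSP90, fell by 1.12 (SE 0.14) and Hsph1, an exchange factor of HSP70, by 1.03. Fkbp4, another cochaperone, fell by 1.24 (SE 0.13), but had -0.43 (not called) with the mean of its probe sets. The small heat shock protein Hspb1 rose by 1.10 (SE 0.16). Hspb6, which striated muscle makes in quantity, rose by 1.20 with all arrays and had 0.84 (called higher) without isotype control replicates 3, 4 and 5. Of 25 antioxidant genes 8 rose and 5 fell (32% and 20% of the list, median -0.00152). Hmox1, which degrades heme, had log2 signals of 10.88, 10.42, 9.32, 9.43 and 10.76 in isotype control replicates 1 to 5 and from 5.97 to 6.97 (median 6.59) in naïve mice. Every isotype control array was above every naïve array. It rose by 3.60 (SE 0.34), and Gpx1, a glutathione peroxidase, by 1.61. The glutathione transferases Gstm1, found in astrocytes, and Gstm5 fell by 0.90 and 1.13, and Srxn1, a direct target of NRF2, by 0.75. Sod1 (-0.46) and Gpx4 (-0.35) were not called.

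Iron and copper genes rose more often than they fell. Of 24 iron, heme and copper genes 13 rose and 1 fell (median log2 fold change 0.77). Slc11a1, which pumps iron out of phagosomes, rose by 2.92, Cp (ceruloplasmin, a copper-bearing ferroxidase) by 2.86 and Atp7a, a copper pump, by 1.60. The related ferroxidase Heph fell by 0.70, and Fth1, the heavy chain of ferritin, had -0.11 (SE 0.08) and was not called. Of 13 metallothionein and zinc transport genes 3 rose and 4 fell (23.1% and 30.8% of the list, median 0.15). The ZIP family of zinc importers was split, with 1.62 for Slc39a14, 1.61 for Slc39a1 and 1.37 for Slc39a8, while their relatives Slc39a12 and Slc39a10 fell by 0.86 and 0.68. The metallothioneins, which zinc, glucocorticoids and cytokines induce, were not called, with 0.17 (SE 0.10) for Mt1, 0.34 (SE 0.11) for Mt2 and 0.23 (SE 0.16) for Mt3. Mt2 signals were 14.40, 14.38, 14.10, 14.17 and 14.55 in isotype control replicates 1 to 5 and 13.64 to 14.23 (median 14.01) in naïve mice. The groups overlapped, with isotype control replicates 1, 2 and 5 above the naïve range.

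Hypoxia genes had more rises than falls. Of 22 members 8 rose and 1 fell (median log2 fold change 0.28). Hif1a itself rose by 1.32 (SE 0.14), Egln3, the prolyl hydroxylase that it induces, by 1.16, and P4ha1, a collagen hydroxylase, by 1.09. Bnip3 (-0.39) and Epas1 (-0.13) were not called. Of 18 glucocorticoid-induced genes 6 rose and 1 fell (median 0.31), and 3 rose without isotype control replicates 3, 4 and 5. Sgk1 rose by 0.86 and Per1 by 1.02, while Tsc22d3 (-0.53) was not called.

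Cytokine signalling genes rose across the pathway. Of 28 regulators of JAK-STAT and NF-κB 25 rose and 0 fell (median log2 fold change 1.55), and of 28 immediate early genes 23 rose and 1 fell (median 1.47). Nfkbie and Nfkbiz, inhibitors or modulators of NF-κB, rose by 3.38 and 3.14, and Relb by 2.57. Jak1, which is made in most cells, had 0.08 and was not called. Junb rose by 2.46, Fosl2 by 2.69 and Egr2 by 2.61. Arc, which neuronal activity induces, fell by 0.77 (SE 0.16), and Egr3 (0.50) was not called.

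Among developmental signalling genes, more TGF-β and BMP genes rose than fell, and more Notch and Hedgehog genes fell than rose. The TGF-β and BMP falls were a smaller share than the 14.9% of all genes. So were the Notch and Hedgehog rises against the 17.2% of all genes. Of 36 TGF-β and BMP genes 11 rose and 2 fell (30.6% and 5.56% of the list, median log2 fold change 0.35). Tgfb1, the ligand, rose by 2.41 (SE 0.20), its receptors Tgfbr2 and Tgfbr1 by 2.22 and 1.98, and Ltbp2, of the family of latency proteins, by 4.14. Smad4 had 0.28 and was not called. Rgma, the target of the antibody tested in the series and a co-receptor for BMPs, had log2 signals from 8.05 to 8.45 (median 8.21) in naïve mice and 8.59, 8.57, 8.46, 8.76 and 8.39 in isotype control replicates 1 to 5. The groups overlapped, with isotype control replicates 1, 2, 3 and 4 above the naïve range. Its log2 fold change was 0.32 (SE 0.16, adjusted p = 0.12), which was not called. Of 27 Notch and Hedgehog genes 8 fell and 3 rose (29.6% and 11.1% of the list, median 0.04). Shh, a ligand of neurons and floor plate, had log2 signals from 9.08 to 9.52 (median 9.37) in naïve mice and 8.38, 8.48, 8.62, 8.21 and 7.80 in isotype control replicates 1 to 5. No isotype control array reached the naïve range, which lay higher. It fell by 1.06 (SE 0.15). Its receptor Ptch1 and the decoy Hhip, both of which the pathway itself induces, fell by 0.78 and 0.71. Jag1 rose by 1.29 and Notch1 by 1.11, while the Notch targets Nrarp and Hey1 fell by 1.004 and 0.69. Notch2 rose by 1.33, but this rested on its brighter probe set. The other probe set of Notch2 had -0.845 (not called), and averaging the probe sets gave 0.24 (not called).

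Of 33 Wnt genes 11 rose and 2 fell (33.3% and 6.06% of the list, median log2 fold change 0.32). Median scaling gave 8 and 3. Sfrp4, a secreted inhibitor, rose by 2.50, Tcf7l2, a transcription factor of the pathway, by 1.74 and Fzd7, a receptor, by 1.52, and Frzb, another secreted inhibitor, fell by 1.38. Of 31 growth factor genes 10 rose and 7 fell (32.3% and 22.6% of the list, median 0.45). Igfbp4 and Igfbp7, which bind insulin-like growth factors, rose by 2.02 and 1.63, Met, the receptor for hepatocyte growth factor, by 1.07, and Egfr by 0.89. Fgf12, an intracellular partner of sodium channels, fell by 1.44 and Fgf1 by 0.60. Of 41 axon guidance genes 12 fell and 6 rose (29.3% and 14.6% of the list, median -0.23). Lingo1 and Omg, which take part in the inhibition of axon growth by myelin, fell by 1.24 (SE 0.24) and 1.06 (SE 0.17), and Plxnd1, a semaphorin receptor of vessels and immune cells, rose by 2.94. Rtn4, the myelin inhibitor Nogo, had -0.13 and was not called.

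More clock genes fell than rose. Of 19 members 6 fell and 3 rose (31.6% and 15.8% of the list, median log2 fold change -0.35). Median scaling gave 3 rises and 9 falls. Nr1d2, a nuclear receptor that represses Arntl, fell by 0.95 (SE 0.12), Hlf and Dbp, which are transcription factors of the PAR family, by 0.90 and 0.70, and Cry2 by 0.64. Nfil3, which opposes Dbp at the same sites, rose by 1.45 (SE 0.17) and Per1 by 1.02. Dbp signals were 10.32, 10.40, 10.23, 9.97 and 10.04 in isotype control replicates 1 to 5 and 10.40 to 11.31 (median 11.05) in naïve mice. The highest isotype control value and the lowest naïve value were nearly equal, and without isotype control replicates 3, 4 and 5 the log2 fold change of Dbp was -0.53 (not called). The hour of sampling is not given in the sources used here.

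Few genes of RNA processing and translation were called. Of 29 splicing factors 3 rose and 4 fell (median log2 fold change 0.22), which is 10.3% and 13.8% of the list and no more than among all genes. Ptbp1, which keeps neuronal exons silent in other cells, had log2 signals from 9.68 to 9.92 (median 9.89) in naïve mice and 11.79, 11.40, 11.17, 11.32 and 11.56 in isotype control replicates 1 to 5. The groups did not overlap, and all isotype control values were the higher ones. It rose by 1.59 (SE 0.13), but had 0.76 (called higher) with the mean of its probe sets. Its neuronal relative Ptbp2 fell by 0.66 (SE 0.08). The neuronal factors Rbfox1, Nova1 and Celf4 fell by 1.38, 0.97 and 0.83. Hnrnpa2b1 (0.26) and Hnrnpk (0.19) were not called. Of 24 translation genes 2 rose and 1 fell (median 0.19), with rises of 0.91 for Rplp0 and 0.84 for Rps18, while of 23 ribosome biogenesis genes 2 rose and 1 fell (median 0.09). Those rises were Myc (1.67) and Ddx21 (1.23). Among 29 chromatin regulators 7 rose and 2 fell (24.1% and 6.9% of the list, median 0.29). Hmgb2, abundant in dividing cells, rose by 3.16 and Uhrf1, which copies DNA methylation, by 3.86, and Hdac11 fell by 1.04.

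Most actin genes rose and most microtubule genes fell. Of 32 actin and motility genes 25 rose and 0 fell (median log2 fold change 1.49), and of 27 microtubule and axonal transport genes 16 fell and 2 rose (median -0.75, and 20 falls under median scaling). Myo1g and Plek, of leukocytes, rose by 4.27 and 3.65, and Tagln2 by 3.07. Actb (0.20) and Actg1 (0.20), the general actins, were not called. Among tubulins Tubb6 rose by 2.91 (SE 0.27) and Tubb2b by 0.91 (SE 0.14), Tubb3, of neurons, fell by 0.67 (SE 0.10), and Tubb2a had -0.19 and was not called. With the mean of its probe sets Tubb6 had 1.24 (called higher). The motors Dync1i1, Kif1a and Kif5a, which carry cargo along axons, fell by 1.44, 1.22 and 1.15. Of 21 annexin, S100 and membrane repair genes 14 rose and 0 fell (median 1.77), with 5.19 for S100a4 and 2.55 for Anxa3.

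The isotype control mice differed most among themselves in skeletal muscle genes, which held all 10 of the largest SDs among genes whose mean in that group was 8 or more on the log2 scale. Acta1, the actin of muscle fibres, had 7.04, 6.00, 12.05, 14.46 and 10.66 in isotype control replicates 1 to 5 and 6.52 to 9.67 (median 7.19) in naïve mice. The groups overlapped. It was not called (log2 fold change 2.52, SE 1.17, adjusted p = 0.085) and had -0.998 (not called) without replicates 3, 4 and 5. The adult myosin heavy chain Myh1 had 5.17, 5.50, 10.12, 13.67 and 9.71 in the same arrays and 1.07 to 7.55 (median 5.07) in naïve mice, with a log2 fold change of 4.18 that was called, and of 0.68 (not called) without isotype control replicates 3, 4 and 5. Genes of regenerating muscle gave 6 rises of 14 with all arrays and 0 without these 3. Of 20 cartilage and bone genes 3 rose and 2 fell (median 0.04), 15% and 10% of the list. Acp5, of osteoclasts and macrophages, rose by 6.84, while the cartilage collagen Col11a2 (0.19) was not called.

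**Figure D4:**
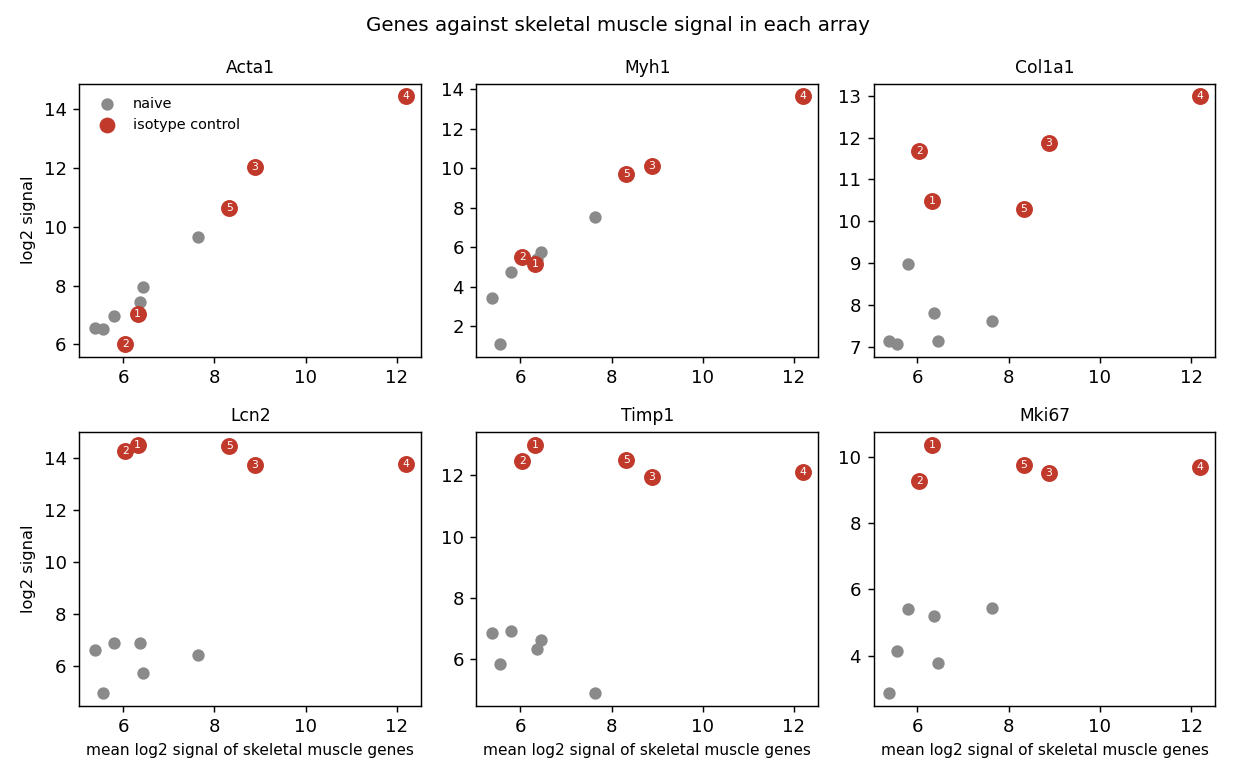
Log2 signal of 6 genes in isotype control replicates 1 to 5 (red) against the mean log2 signal of 33 skeletal muscle genes in the same array, with naïve arrays in grey. Myh1 and Acta1, both among those 33 genes, rise with the muscle mean among the isotype control arrays, while Lcn2, Timp1 and Mki67 lie above all naïve arrays at low and at high muscle signal alike.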

How the data were processed

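RNA from the spinal cord of 17 mice was hybridised to Affymetrix Mouse Genome 430 2.0 arrays, 1 array per mouse. The authors made linear signal intensities with MAS5 (Microarray Suite 5.0) and scaled each array by a global factor from a 2% trimmed mean. The submitters' processing notes also name affy, and its version is not given in the sources used here. The deposited intensity values were turned into log2 signals with no offset.

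Of 45101 probe sets 34958 had 1 gene in the platform annotation, 932 several and 9211 none. Of the former, 34754 matched the RefSeq gene table by gene ID, and 0 symbols changed. Of the resulting 18194 genes 9012 had several probe sets, and each was taken by the probe set with the highest mean signal over 17 arrays. limma 3.58.1 in R 4.3.3 fitted 1 model over 3 groups (isotype control, 5; anti-RGMa, 6; naïve, 6), with Benjamini-Hochberg adjusted p-values over all genes. P-values set the difference between the groups against the spread between mice, estimated over the 3 groups. Python 3.11.15 with pandas 2.3.3, numpy 2.4.6 and matplotlib 3.10.9 was used for summaries and plots. The code was tested on simulated data.

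The comparison, its genes and 75 gene lists were chosen with earlier results of these data known, and 1697 of 1838 list entries were measured. List counts are read against the share of all genes called, given once and beside lists close to it. Genes were named by rule, as the 10 largest changes, the 10 brightest called genes and the 10 smallest p-values in each direction, the 10 largest SDs among isotype control arrays, and in each list up to 6 called members in its main direction, 3 against it and 3 of the brightest members not called, at a mean log2 signal of at least 8 where called. Arc, Atf4, Ddit3, Gfap, Vegfa and Vim were named after their values were seen. Promoter sequences came from RefSeq (GRCm38.p6). Other scalings, offsets, filters on dim genes, probe set rules, variance models, a replicate block, a muscle covariate, thresholds and left-out arrays were tried.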

Additional observations from a re-analysis of the deposited data

Results flagged for a closer look

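In each group the highest or lowest array was set against the others for every list and gene of the text, and a value is given here when its gap to the nearest array exceeded 0.625 of the range of the group in naïve mice (n = 6) or 0.71 in the isotype control group (n = 5), the limits of Dixon's test. This held for 43 of 738 values (5.83%), and chance gives about 1 in 20. All values are log2 signals.

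Isotype control replicate 1 was the highest array for the mean of the coagulation genes (10.04), Ccr7 (9.63), Cdc20 (9.87), Nupr1 (12.54) and Rrm2 (10.89). Isotype control replicate 2 was the highest array for Fgf1 (11.76). Isotype control replicate 3 was the lowest array for Nos3 (8.64). Isotype control replicate 4 was the highest array for the mean of the pericyte and smooth muscle markers (9.38), Cdkn1a (11.44), Des (11.91), Hspb6 (11.46) and Tpm2 (11.60). Isotype control replicate 4 was the lowest array for Kcnip2 (4.85). Replicate 4 also had the highest skeletal muscle signal, and the part of muscle in these values was not tested.

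Naïve replicate 1 was the highest array for Ptgds (14.83) and Snap25 (14.86). Naïve replicate 1 was the lowest array for Slc1a3 (8.81). Naïve replicate 2 was the lowest array for Ptbp1 (9.68). Naïve replicate 3 was the highest array for Dcn (12.09) and Grn (11.06). Naïve replicate 3 was the lowest array for Vegfa (9.23). Naïve replicate 4 was the highest array for the mean of the antioxidant genes (10.86), Cyp51 (11.43), Hhip (9.22) and Met (7.55). Naïve replicate 4 was the lowest array for Angptl4 (5.39), Cebpb (8.89), Fgfr3 (11.57) and Timp4 (11.25). Naïve replicate 5 was the highest array for the mean of the tryptophan, arginine and polyamine genes (8.15) and Arg1 (7.32). Naïve replicate 5 was the lowest array for the mean of the lysosome genes (10.15), Gsdmd (5.71), Mal (13.65), Pgd (10.13) and Samhd1 (7.85). Naïve replicate 6 was the highest array for the mean of the microtubule genes (12.57), Acod1 (1.73), Cd44 (9.40) and Fosl2 (7.95). Naïve replicate 6 was the lowest array for Asns (11.25), Atf3 (4.06), Gjc3 (8.80) and Rbfox1 (11.83).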

How the results depend on the processing

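The counts of calls, 3135 genes higher and 2709 lower, came from the deposited scaling and all arrays. With 3 settings 1 of them moved by over 1.5 times. In the brighter part of the genes, with 9097 tested, 1578 were higher and 1811 lower. With a fold over 2, 2171 were higher and 1046 lower, and with no limit on the fold 4481 and 4945. Leaving out 1 array at a time gave 2996 to 3189 higher and 2454 to 2912 lower. Median scaling gave 2673 and 3678, the muscle covariate 2978 and 2795, the data without isotype control replicates 3, 4 and 5 2955 and 2797, and the study's threshold on the unadjusted p 3267 and 2822.

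With the replicate number of the titles as a block, 3228 genes were called higher and 2887 lower. The deviations of isotype control and naïve arrays of the same number were correlated across genes. For numbers 1 to 5, r was -0.027, 0.071, 0.030, 0.045 and -0.023. Of the isotype control arrays, 3 of 5 correlated best with their own number, which is no reason against a pairing. Because the r values were small and of both signs, whether the numbers pair the mice could not be decided. The main fit used no block.

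Of 294 genes named in the text 238 were called, and 203 of these kept call and direction in all 24 other fits. 0 reversed and 35 lost the call in at least 1 fit. Aco1 (0.58), Nos3 (0.54), Pdgfra (0.53) and Tjp1 (0.52) lost it under median scaling. Aco1 (0.57), Acta2 (0.75), Atp6v1b2 (-0.58), Cavin1 (0.54), Egln3 (0.55), Fgf1 (-0.54), Fkbp4 (-0.43), Fzd7 (0.54), Gmps (-0.39), Hhip (-0.50), Las1l (-0.55), Lss (-0.45), Mvd (-0.35), Nos1 (-0.51), Notch2 (0.24), Pdgfra (0.57), Psmc1 (-0.47), Snap25 (-0.49), Tpm2 (1.07) and Uqcrc2 (-0.53) lost it with the mean of the probe sets of a gene. Acta2 (0.42), Bcan (-0.55), Des (0.49), Fgf1 (-0.56), Hapln2 (-0.55), Heph (-0.49), Hspb6 (0.69), Mfsd2a (-0.58), Myh1 (0.91), Slco1a4 (-0.47), Tpm2 (0.48), Tspan2 (-0.54) and Tubb3 (-0.54) lost it with the muscle covariate. Acta2 (0.52), Bcan (-0.51), Dbp (-0.53), Des (0.79), Fgf1 (-0.51), Heph (-0.46), Myh1 (0.68), Slco1a4 (-0.38) and Tubb3 (-0.52) lost it without isotype control replicates 3, 4 and 5. Cry2 (-0.53), Fgf1 (-0.56), Las1l (-0.58), Mmp17 (-0.53), Nos1 (-0.49) and Tspan2 (-0.57) lost it without isotype control replicate 1. Des (1.95) and Myh1 (4.18) lost it with the 11 arrays alone. Fgf1 (-0.55), Slco1a4 (-0.58) and Tspan2 (-0.58) lost it under quantile normalization. Fgf1 (-0.57) lost it with array weights. Fgf1 (-0.58) lost it without naïve replicate 4. Fgf1 (-0.58) lost it without naïve replicate 6. Las1l (-0.58) and Mmp17 (-0.56) lost it with an offset of 32. Mmp17 (-0.57) lost it without isotype control replicate 5. Myh1 (2.97), Slco1a4 (-0.58) and Tspan2 (-0.57) lost it without isotype control replicate 4. Slco1a4 (-0.57) lost it without naïve replicate 3. Slco1a4 (-0.52) lost it without isotype control replicate 3. In turn 14 genes not called were called in at least 1 fit, with the log2 fold change there and the number of fits being Acta1 (2.50 to 3.53, 4), Cyp51 (-0.63, 1), Egr3 (0.63, 1), Gapdh (-0.63 to -0.59, 2), Glul (-0.64, 1), Hmgcs1 (-0.59, 1), Mt1 (0.75, 1), Notch3 (0.71, 1), P2ry12 (-0.71 to -0.60, 8), Psap (0.59 to 0.64, 3), Ptgds (-0.77 to -0.59, 7), Slc2a1 (0.66 to 0.67, 2), Sod1 (-0.60, 1) and Tsc22d3 (-0.66, 1). The fold moved by over 1.5 times for 40 genes with the mean of the probe sets, 7 with the muscle covariate and 8 without isotype control replicates 3, 4 and 5. The 8 were Acta1, Des, Fap and Myh1, given above, and Apoc2 (5.62), Arg1 (9.07), Cd36 (4.20) and Kcnab3 (-2.68), which kept their calls. Among the 40 the rise was smaller for Top2a (1.94) and Cdc20 (1.39), and the fall larger for Slc2a3 (-2.10) and Shh (-2.05).

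10 genes that were not called changed sign, and the cause was not tested. With the muscle covariate, the log2 fold change was -0.447 for Acta1, -0.00904 for Timp2 and 0.12 for Timp4. Without isotype control replicates 3, 4 and 5, the log2 fold change was -0.998 for Acta1 and 0.0981 for Timp4. Under quantile normalization, the log2 fold change was 0.0317 for Atf4, 0.0798 for Fth1 and 0.0333 for Mbp. Under median scaling, the log2 fold change was -0.0222 for Ddit3 and -0.0518 for Jak1. With the mean of the probe sets of a gene, the log2 fold change was -0.226 for Egr3, -0.194 for Fkbp5 and -0.236 for Timp2. Leaving out 1 array at a time, Atf4 ran from -0.0512 to 0.000588. Of the genes not called, 21 had another probe set that was called, namely Actb, Atf4, Bcl2, Cnp, Egfl7, Egr3, Epas1, Gja1, Glul, Hmgcs1, Map1lc3b, Mobp, Mt1, Notch3, Ptgds, Rgs5, Rtn4, Sod1, Timp2, Timp4 and Tsc22d3, and 0 called genes had a probe set called in the opposite direction.

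The median of 14 lists changed sign. In the brighter part of the genes it was -0.055 for T cell markers, of which only 1 was tested there. It was -0.165 there for glycolysis and lactate (22 tested) and -0.145 for tryptophan and arginine genes (13 tested). Under median scaling it was -0.0437 for oligodendrocyte precursors, -0.0932 for ependymal genes, -0.00165 for Schwann cell genes, -0.101 for cartilage and bone, -0.0641 for fatty acid oxidation, -0.0501 for ribosome biogenesis, -0.0948 for Notch and Hedgehog genes, -0.0964 for retinoid and steroid genes and -0.0519 for tetraspan and gap junction genes. Under quantile normalization it was -0.0824 for ependymal genes, -0.0963 for cartilage and bone, 0.026 for antioxidant genes and -0.0997 for Notch and Hedgehog genes. With genes of mean 7 or more in a group it was -0.417 for ependymal genes. With the mean of the probe sets of a gene it was -0.0906 for ependymal genes, -0.104 for Notch and Hedgehog genes and -0.0493 for retinoid and steroid genes. Without isotype control replicates 3, 4 and 5 it was -0.0909 for ependymal genes, -0.0338 for cartilage and bone and 0.0548 for antioxidant genes. With the muscle covariate it was -0.19 for cartilage and bone and 0.0293 for antioxidant genes. With array weights it was 0.00116 for antioxidant genes. With the replicate block it was 0.0307 for antioxidant genes. Leaving out 1 array at a time it ran from -0.186 to 0.106 for ependymal genes, from -0.0765 to 0.119 for cartilage and bone, from -0.365 to 0.0711 for adipocyte genes, from -0.0308 to 0.0237 for antioxidant genes and from -0.0337 to 0.175 for Notch and Hedgehog genes.

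The number of arrays limits the precision, and no depth exists for array signals.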

Other observations

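Complement, interferon and lymphocyte genes belong to the immune context and were listed for reference. Of 18 complement genes 14 rose and 0 fell (median log2 fold change 3.06), and of 17 interferon-stimulated genes 17 rose (median 3.42). Of 10 T cell markers 8 rose (median 3.06) and of 10 B and plasma cell markers 8 (median 2.56), with 0 falls in the first list and 0 in the second. Of 11 markers of homeostatic microglia 7 rose and 0 fell (median 1.22). Tmem119, a microglial membrane protein, rose by 1.85 and Cx3cr1, the fractalkine receptor, by 1.99, while P2ry12, a purinergic receptor of resting microglia, had -0.57 and was not called, but was called lower in 8 of the other fits.

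Membrane and ion transport genes changed by family member. Of 18 pumps and channels of resting neural tissue 11 fell and 0 rose (median -0.85), among them Kcna2, a potassium channel of axons, by 1.34 and Atp1b1, a subunit of the sodium pump, by 0.98. Of 22 tetraspan and gap junction genes 9 rose and 5 fell (median 0.08). Cd37 and Cd53, tetraspanins of leukocytes, rose by 4.07 and 3.45, and Gjc3, a connexin of oligodendrocytes, fell by 0.78. Of 19 fibroblast and meningeal markers 9 rose and 1 fell (median 0.83), with 1.88 for the chemokine Cxcl12 and 2.74 for Fap, the fibroblast activation protein. With the mean of its probe sets Cxcl12 had 0.63 (called higher), and its lowest probe set had -0.64 (not called). Without isotype control replicates 3, 4 and 5 the median of the list was 0.38, and Fap had 1.70 (called higher). Of 20 genes of retinoid, thyroid and steroid handling 5 rose and 2 fell (median 0.04).

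Cilia genes were mostly not called, with 1 rise and 2 falls of 25 ependymal genes (median 0.04). Of 22 cell cycle inhibitors and p53 targets 10 rose and 1 fell (median 0.49), and of 10 histone genes 3 rose and 0 fell (median 0.31). Markers of tissue beside the cord gave 2 rises and 1 fall of 12 Schwann cell genes (median 0.13), 1 rise and 0 falls of 8 erythroid genes (median 0.38), and 2 rises and 3 falls of 11 adipocyte genes (median -0.12). Their part in other results was not tested.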
